A study of Sus scrofa with 10 samples.

Results

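SMAD3 (ENSSSCG00000004952) and PIAS1 (ENSSSCG00000004958) are 2 of the 12354 mRNAs listed for pig peripheral blood, and they were chosen by their Ensembl gene identifiers as 2 regulators of cytokine signalling. Whole blood was taken from 10 healthy female Qingyu pigs, with 2 pigs and 1 library per pig at each of 5 ages. The youngest pigs were newborn (D0). The others were sampled at an age of 7 days (labelled D7), of 28 days (labelled D28), of 180 days (labelled D180) or of 2 years (labelled Y2). Each library came from a different pig, so no pig was followed over time, and no group had a treatment or a changed genotype. D0, D7 and D28 (6 libraries) are called the suckling period and D180 and Y2 (4 libraries) the late period. RNA was depleted of ribosomal RNA, and every value is an FPKM, a fragment count that is scaled to transcript length and to the mapped fragments in that library.

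SMAD3 is a receptor-regulated SMAD. Type I receptors of TGF-beta and activin phosphorylate it, it joins SMAD4, and the complex enters the nucleus and regulates transcription, in T cells among others towards regulatory T cell differentiation. PIAS1 is a SUMO E3 ligase, an enzyme that helps attach the small protein SUMO to other proteins. PIAS proteins restrain cytokine signalling through JAK kinases and STAT factors, and they also bind SMADs.

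An FPKM depends on what else is in the library. The 10 mRNAs of highest FPKM took 86.9% to 90.7% of the summed FPKM at D0, D7 and D28, 68.1% to 68.2% at D180 and 83.2% to 84.2% at Y2. The median FPKM of all mRNAs rose with this from 0.831 in the lowest D0 library to 5.64 in the highest D180 library. Both genes are therefore given as deposited and after median-of-ratios scaling, in which a library's factor is the median, over mRNAs, of its FPKM divided by the geometric mean of that mRNA (0.437 to 3.03). That scaling assumes that most mRNAs do not change. In whole blood, fewer cells of a type and less RNA per cell cannot be told apart on either scale.

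SMAD3 was low at birth and highest at D180 in deposited FPKM. The D0 pigs had 0.971 and 0.960 FPKM, the D7 pigs 1.92 and 1.95, and the D28 pigs 3.90 and 3.65. The D180 pigs had 11.96 and 12.4 FPKM and the Y2 pigs 5.08 and 5.05. No age overlapped another, and the order was D0, D7, D28, Y2, D180. Of all mRNAs, 44.2% lay higher without overlap at D7 than at D0, 77.2% at D28 than at D7 and 92.4% at D180 than at D28, and 89.0% lay lower at Y2 than at D180. The mean of 12.2 ± 0.292 FPKM at D180 (SD, n = 2) was 12.6-fold the mean of 0.966 ± 0.00814 at D0 (SD, n = 2). A peak at D180 was shared by most of the blood mRNAs, since 90.4% of them had their highest deposited age mean there.

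After median-of-ratios scaling, SMAD3 held a narrower range. The scaled FPKM was 2.22 and 2.11 at D0, 3.83 and 3.62 at D7, 3.90 and 3.75 at D28, 4.17 and 4.08 at D180, and 3.18 and 3.18 at Y2. The D0 libraries were the lowest, D7, D28 and D180 lay close together with D7 and D28 overlapping, and Y2 lay between D0 and D7. Of all mRNAs, 31.6% lay higher without overlap at D7 than at D0 on this scale and 27.3% lower at Y2 than at D180. Mean levels were 2.17 ± 0.0795 at D0 and 3.72 ± 0.151 at D7 (SD, n = 2 each), a 1.72-fold difference, against 1.03-fold from D7 to D28 and 1.08-fold from D28 to D180.

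PIAS1 was the more abundant gene at every age. Its deposited level was 9.07 FPKM in both newborn pigs, 10.4 and 11.03 at D7, and 10.03 and 10.1 at D28. It then reached 32.7 and 33.9 at D180 and 24.9 and 25.7 at Y2. The 6 suckling libraries lay between 9.07 and 11.03 FPKM, and all 4 late libraries lay above them. The groups of the 2 periods also failed to overlap in the higher direction for 70.9% of all mRNAs, SMAD3 among them.

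Scaled PIAS1 took another course. The scaled FPKM was 20.8 and 19.9 in the newborn pigs and 20.8 and 20.5 in those of D7. It was 10.02 and 10.4 at D28, 11.4 and 11.2 at D180, and 15.5 and 16.2 at Y2. The 4 libraries of the first week were the highest and those of D28 the lowest, and no library of D28, D180 or Y2 overlapped those of another age. Without overlap, 34.2% of all mRNAs lay lower at D28 than at D7, 32.1% higher at D180 than at D28 and 33.1% higher at Y2 than at D180. The scaled mean fell 2.02-fold from 20.6 ± 0.252 at D7 to 10.2 ± 0.266 at D28 (SD, n = 2 each). It was 1.41-fold higher at Y2 (15.9 ± 0.440) than at D180 (11.3 ± 0.151).

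**Figure D1:**
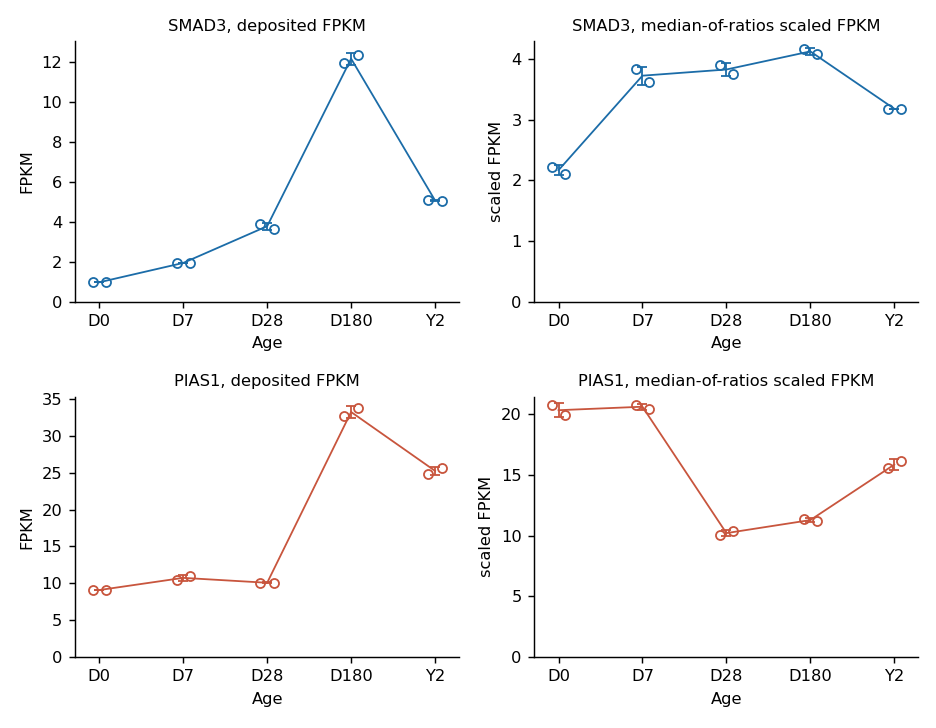
FPKM of SMAD3 (upper panels) and PIAS1 (lower panels) by age, as deposited (left) and after median-of-ratios scaling (right). Circles are single pigs, lines join the age means and bars are the SD of 2 pigs. Both genes peak at D180 as deposited (means 12.2 and 33.3 FPKM), whereas scaled SMAD3 steps up from 2.17 at D0 to 3.72 at D7 and scaled PIAS1 steps down from 20.6 at D7 to 10.2 at D28.

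Ranks within a library do not depend on scaling. SMAD3 ranked 5668 and 5860 from the highest of the 12354 mRNAs in the newborn pigs, 3952 and 4139 at D7, 3705 and 3853.5 at D28, and 3298 and 3307 at D180, so it exceeded 53.3% of mRNAs on average at D0 and 73.3% at D180. At Y2 it ranked 4321 and 4334. PIAS1 ranked 875 and 919 at D0, 813 and 821 at D7, 1418 and 1425 at D28, 1040 and 1010 at D180, and 765 and 744 at Y2. It exceeded 88.5% to 94.0% of mRNAs in every library, with D28 the lowest age and Y2 the highest, whereas scaled PIAS1 was lower at Y2 than at D0 and D7.

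The differences between ages were tested with limma on log2(FPKM + 1), fitting the 5 ages together, with Benjamini-Hochberg adjustment over the 12354 mRNAs. A call is an adjusted p of at most 0.05, and differences on this scale understate the fold of low genes such as SMAD3. The median difference over all mRNAs is understated in the same way, since the median FPKM averaged 0.848 at D0 and 1.90 at D28. A deposited difference beyond that median is therefore not by itself a change beyond that of the typical mRNA. Over the 5 ages both genes were called as deposited (adjusted p = 1.75e-08 for SMAD3 and 2.99e-08 for PIAS1), as were 97.7% of all mRNAs. Both were also called after scaling (adjusted p = 0.000133 and 3.76e-06), as were 67.1% of all mRNAs.

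From D0 to D7, SMAD3 rose by 0.58 in log2(FPKM + 1) with either scale (SE 0.06, adjusted p = 0.000256 as deposited and 0.000216 after scaling). As a ratio of age means, SMAD3 rose 2.00-fold as deposited and 1.72-fold after scaling. It was higher in both D7 pigs than in both D0 pigs, and the difference exceeded that of 92.6% of mRNAs as deposited and 92.7% after scaling. Of all mRNAs 18.5% were called higher as deposited and 17.8% after scaling. PIAS1 rose by 0.22 as deposited (SE 0.06, adjusted p = 0.0269), against a median over all mRNAs of 0.06, and was not called without either D0 library or without D7 pig 2 (0.18 to 0.22). After scaling the PIAS1 difference was 0.02 (95% CI -0.11 to 0.15, adjusted p = 0.824), and the D0 and D7 libraries overlapped. When the 10 highest mRNAs were left out and each library was brought to the same sum, the differences were 0.84 for SMAD3 and 0.49 for PIAS1, both called (adjusted p = 4.43e-05 and 0.000600). Of the 12344 mRNAs left, 4718 were called higher and 772 lower.

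From D7 to D28 the 2 genes moved apart. Deposited SMAD3 rose by 0.70 (adjusted p = 2.86e-05), where 65.3% of mRNAs were called higher and the median over all was 0.46. Scaled SMAD3 differed by 0.03 (95% CI -0.11 to 0.18, adjusted p = 0.730). PIAS1 differed by -0.08 as deposited (95% CI -0.22 to 0.05, adjusted p = 0.239) and fell by 0.95 after scaling (SE 0.06, adjusted p = 6.62e-06). On the scaled values 22.8% of mRNAs were called lower at this step, and 5.67% had a more negative difference than PIAS1. With the 10 highest mRNAs removed the differences were 0.41 for SMAD3 (adjusted p = 0.00181) and -0.50 for PIAS1 (adjusted p = 0.000477). In that setting 5927 of 12344 mRNAs were called higher and 1441 lower.

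From D28 to D180 both deposited levels rose, SMAD3 by 1.46 (adjusted p = 1.53e-07) and PIAS1 by 1.63 (adjusted p = 9.14e-08). At this step 90.6% of mRNAs were called higher and the median over all was 1.07. The deposited age means rose 3.22-fold for SMAD3 and 3.31-fold for PIAS1, while the mean scaling factor went from 0.986 to 2.95. After scaling neither gene was called, with 0.09 for SMAD3 (95% CI -0.06 to 0.23, adjusted p = 0.342) and 0.13 for PIAS1 (95% CI 0.00046 to 0.26, adjusted p = 0.118), where 14.4% of mRNAs were called higher and 18.0% lower. With the 10 highest mRNAs removed both were called, with 0.66 for SMAD3 (adjusted p = 9.58e-05) and 0.76 for PIAS1 (adjusted p = 2.83e-05). Most other mRNAs were called in the same direction there, 7816 of 12344 higher and 852 lower.

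From D180 to Y2, SMAD3 fell by 1.12 as deposited (adjusted p = 7.51e-06), when 84.6% of mRNAs were called lower and the median over all was -0.65. It also fell after scaling, by 0.29 (SE 0.06, adjusted p = 0.0208), when 3.95% of mRNAs were called lower. That scaled call was lost without any 1 of the 4 libraries of D180 and Y2, with differences of -0.31 to -0.28. PIAS1 changed direction with the scale, with -0.38 as deposited (adjusted p = 0.000378) and 0.46 after scaling (adjusted p = 0.00152). With the 10 highest mRNAs removed the differences were -0.50 for SMAD3 (adjusted p = 0.00237) and 0.27 for PIAS1 (adjusted p = 0.0232). In that setting 766 of 12344 mRNAs were called higher and 2091 lower. Of all mRNAs 7.47% were called higher after scaling, and 5.42% had a larger difference than PIAS1.

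Late against suckling ages, taken as a contrast of age means, gave a rise of 1.57 for SMAD3 (adjusted p = 3.08e-09) and 1.46 for PIAS1 (adjusted p = 3.3e-09) as deposited, where 92.7% of mRNAs were called higher. After scaling the difference was 0.15 for SMAD3 (adjusted p = 0.0141) and -0.27 for PIAS1 (adjusted p = 0.000436), where 25.0% of mRNAs were called higher and 26.1% lower. The scaled libraries of the 2 periods overlapped for both genes, and the SMAD3 call was lost without D180 pig 1 (0.147). With the 10 highest mRNAs removed the differences were 0.96 for SMAD3 (adjusted p = 2.11e-07) and 0.73 for PIAS1 (adjusted p = 6.24e-07). Most other mRNAs were again called in the same direction, 10210 of 12344 higher and 950 lower. With the ages of a period taken as replicates, neither scaled difference was called (adjusted p = 0.551 for SMAD3 and 0.492 for PIAS1).

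Neighbours in the order of the ages were compared with the same fit. Shares over all mRNAs were not computed for ages that are not adjacent in time. Between ages adjacent in time, 27.3% to 35.8% of mRNAs lay apart without overlap in a given direction after scaling. As deposited, 9.62% lay lower without overlap at D28 than at D7. Deposited SMAD3 was called between all neighbours. Deposited PIAS1 was not called between D0 and D28 (adjusted p = 0.0721) or D28 and D7 (adjusted p = 0.239), although the libraries of these ages did not overlap. In scaled SMAD3 (D0, Y2, D7, D28, D180), Y2 was called above D0. Y2 and D7 (adjusted p = 0.0559) and D28 and D180 (adjusted p = 0.342) did not overlap but missed the call, and D7 and D28 overlapped. In scaled PIAS1 (D28, D180, Y2, D0, D7), Y2 was called above D180 and D0 above Y2. D28 and D180 did not overlap but missed the call (adjusted p = 0.118), and D0 and D7 overlapped.

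The ratio of the 2 genes within a library is free of any library scaling. SMAD3 FPKM was 10.7% and 10.6% of PIAS1 FPKM at D0, 18.4% and 17.7% at D7, 38.9% and 36.1% at D28, 36.6% and 36.5% at D180, and 20.4% and 19.7% at Y2. The share was lowest at birth, similar at D7 and Y2, and highest at D28 and D180, whose libraries overlapped. An exact permutation test of the F ratio of the log2 ratio over the 5 ages gave p = 0.00317, or 0.00661 adjusted over the 5 ratio tests made here, where the smallest p possible was 0.00106. The late libraries were not separated from the suckling ones, with a log2 ratio 0.49 higher (exact two-sided permutation p = 0.271). PIAS1 thus went from 9.40 ± 0.0804 times SMAD3 at D0 to 2.67 ± 0.139 times at D28 (SD, n = 2 each).

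PIAS1 was also the most abundant of the 4 PIAS genes in every library. It made up 78.5% and 77.2% of the summed FPKM of PIAS1, PIAS2, PIAS3 and PIAS4 in the newborn pigs and 74.6% and 73.3% at D7. At D28 it made up 58.2% and 60.2%, at D180 62.1% and 59.0%, and at Y2 67.4% and 68.6%. The share was lowest at D28 and D180, which overlapped, and differed over the ages (exact permutation p = 0.00212, adjusted p = 0.00661). Among the other members PIAS2 fell by 0.55 from D7 to D28 after scaling, while PIAS4 rose by 0.47 at that step and PIAS3 rose by 0.44 from D0 to D7.

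SMAD3 was the less abundant of the pair of TGF-beta SMADs. Its FPKM was 0.401 ± 0.0142 times that of SMAD2, the other receptor-regulated SMAD of this branch, at D0, 0.611 ± 0.0568 at D7 and 0.731 ± 0.0106 at D28. The ratio was 0.543 ± 0.0130 at D180 and 0.423 ± 0.0488 at Y2 (SD, n = 2 each). It differed over the ages (exact permutation p = 0.00423, adjusted p = 0.00661), and SMAD2 exceeded SMAD3 in all 10 libraries. SMAD4, the shared partner, was at 31.4 ± 11.7 times the FPKM of SMAD3 at D0 and 2.34 ± 0.725 times at D180 (exact permutation p = 0.00529 over the ages, adjusted p = 0.00661). SMAD4 differed widely between the 2 pigs of an age, with 38.5 and 22.2 FPKM in the newborn pigs, 21.6 and 12.1 at D7, and 34.1 and 22.6 at D180.

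**Figure D2:**
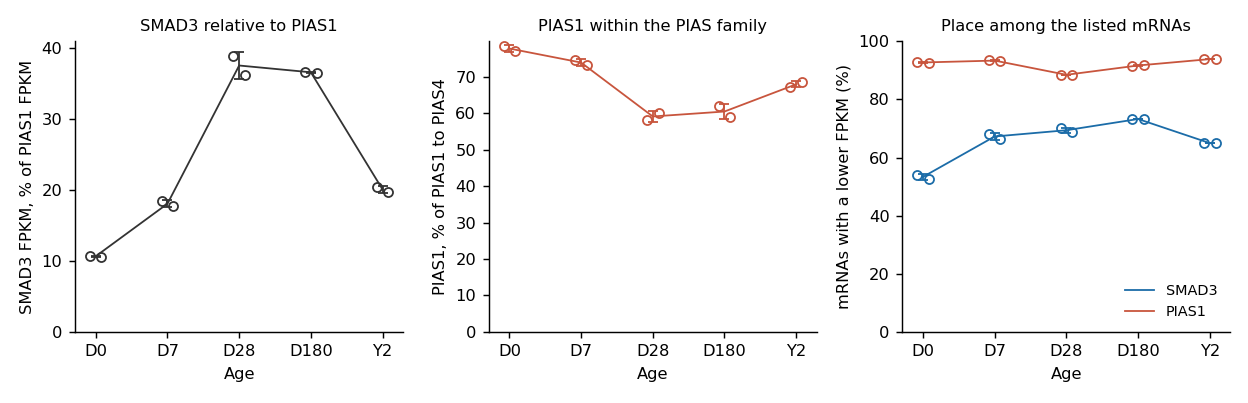
SMAD3 FPKM as a percent of PIAS1 FPKM (left), PIAS1 as a percent of the summed FPKM of PIAS1 to PIAS4 (middle), and the percent of the 12354 mRNAs with a lower FPKM than each gene (right), by age. Circles are single pigs, lines join the age means and bars are the SD of 2 pigs. The SMAD3 share rises from 10.6% at D0 to 37.5% at D28 while the PIAS1 share of its family falls from 77.8% to 59.2%.

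The genes around SMAD3 and PIAS1 in their pathways were described from lists by symbol, on the scaled values unless stated. Of 16 TGF-beta ligands and receptors 13 were listed. From D0 to D7 after scaling, 6 rose, none fell and 7 were not called (beside 17.8% and 20.1% of all mRNAs called higher and lower), with a median of 0.16 against -0.01 over all mRNAs. TGFB1, the main TGF-beta ligand of blood cells and platelets, rose from 6.74 ± 0.0899 to 12.5 ± 0.0436 scaled FPKM (SD, n = 2 each). TGFBR2, the type II receptor that binds the ligand, rose from 6.19 to 10.8. TGFBR1, the type I receptor that phosphorylates SMAD3, differed by 0.01 at this step and fell by 0.61 from D7 to D28. It rose by 0.58 from D28 to D180 and by 0.59 from D180 to Y2.

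TGFB1 was called in the same direction as SMAD3 at the steps where scaled SMAD3 was called. It rose by 0.81 from D0 to D7 and fell by 0.45 from D180 to Y2, and it also rose by 0.22 and 0.21 at the steps between. From D7 to D28, 2 of the 13 ligands and receptors rose and 6 fell after scaling (beside 18.4% and 22.8% of all mRNAs), the latter including TGFB2 by 1.23 and BMPR2 by 0.42. From D28 to D180, 7 rose and 1 fell (beside 14.4% and 18.0% of all mRNAs), and from D180 to Y2, 2 rose and 1 fell (beside 7.47% and 3.95% of all mRNAs). The 2 that rose to Y2 were TGFBR1 (by 0.59) and BMPR1A (by 0.33), opposite to SMAD3, and the 1 that fell was TGFB1.

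Of 24 SMAD proteins and regulators 21 were listed, SMAD3 included. After scaling 6 rose and 4 fell from D0 to D7, a split set beside 17.8% and 20.1% of all mRNAs. Besides SMAD3, those that rose were EP300 (by 0.74) and CREBBP (by 0.65), the acetyltransferases that act as SMAD coactivators, ZFYVE9 (by 0.45), which presents SMADs to the receptor, SMURF1 (by 0.35), a ubiquitin ligase for SMADs and receptors, and SKI (by 0.33), a SMAD corepressor. The 4 that fell were PPM1A (by 0.53), SMURF2 (by 0.36), ZFYVE16 (by 0.33) and RNF111 (by 0.33). From D7 to D28, 2 rose and 8 fell, beside 18.4% and 22.8% of all mRNAs. SMAD7, the inhibitory SMAD, rose by 0.65 from 0.330 to 1.09 scaled FPKM, and SMAD4 fell by 1.64.

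From D28 to D180 after scaling 7 of the 21 rose and 1 fell (beside 14.4% and 18.0% of all mRNAs), with SMAD2 higher by 0.46. From D180 to Y2 none rose, and those that fell were SMAD3 and SMURF2 (by 0.28), beside 7.47% and 3.95% of all mRNAs. As deposited, all 21 rose from D28 to D180, when 90.6% of all mRNAs were called higher.

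Of 9 genes known as TGF-beta targets 8 were listed, SMAD7 and SKIL of the list above among them. After scaling 2 rose and none fell from D0 to D7 (beside 17.8% and 20.1% of all mRNAs), with a median of 0.16 against -0.01 over all mRNAs. From D7 to D28, 1 rose and 4 fell (beside 18.4% and 22.8% of all mRNAs), with a median of -0.28 against 0.02. TGFBI, a TGF-beta-induced matrix protein that monocytes also express, went from 6.81 to 26.1, 2.19, 12.9 and 9.99 scaled FPKM over the 5 ages. From D28 to D180, 1 of the 8 rose and 2 fell (beside 14.4% and 18.0% of all mRNAs), and from D180 to Y2, none rose and 2 fell (beside 7.47% and 3.95% of all mRNAs).

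Of 24 genes of the SUMO pathway 21 were listed, PIAS1 included. After scaling 3 rose and 3 fell from D0 to D7 (beside 17.8% and 20.1% of all mRNAs). From D7 to D28, 3 rose and 7 fell (beside 18.4% and 22.8% of all mRNAs), with a median of -0.11 against 0.02 over all mRNAs. PIAS1 had the most negative difference of the 21 at that step, followed by SENP7 (by 0.94), a protease that edits SUMO chains. Those that fell also included SAE1 (by 0.56), a subunit of the SUMO-activating enzyme, and SENP2 (by 0.40), another SUMO protease. RNF4, a ubiquitin ligase that recognises SUMO chains, was among those that rose (by 0.71).

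PML, a SUMO-modified protein that interferons induce, rose by 2.00 from D0 to D7, from 1.55 ± 0.300 to 9.19 ± 0.631 scaled FPKM (SD, n = 2 each), and fell by 0.61 from D180 to Y2. From D180 to Y2, 2 of the 21 rose after scaling, PIAS1 and SENP7 (by 0.36), and 1 fell (beside 7.47% and 3.95% of all mRNAs). From D28 to D180, 2 rose and 3 fell (beside 14.4% and 18.0% of all mRNAs).

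Of 29 JAK-STAT genes 28 were listed. After scaling 13 rose and 1 fell from D0 to D7 (beside 17.8% and 20.1% of all mRNAs), with a median of 0.15 against -0.01 over all mRNAs. IRF9 and STAT2, parts of the complex that type I interferon activates, rose by 0.84 and 0.57. From D180 to Y2, 1 rose, SOCS3 (by 0.47), 1 fell and 26 were not called (beside 7.47% and 3.95% of all mRNAs).

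From D7 to D28, 7 of the 28 rose and 10 fell after scaling (beside 18.4% and 22.8% of all mRNAs). The interferon receptor chains IFNAR1, IFNAR2, IFNGR1 and IFNGR2 fell by 1.58, 0.90, 1.52 and 1.41, the kinase JAK2 by 0.99 and the feedback inhibitor SOCS3 by 1.59. From D28 to D180, 8 rose and 5 fell (beside 14.4% and 18.0% of all mRNAs), with all 4 receptor chains among those that rose. PIAS1 shared the fall from D7 to D28 with these receptor chains and was not called with them from D28 to D180.

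**Figure D3:**
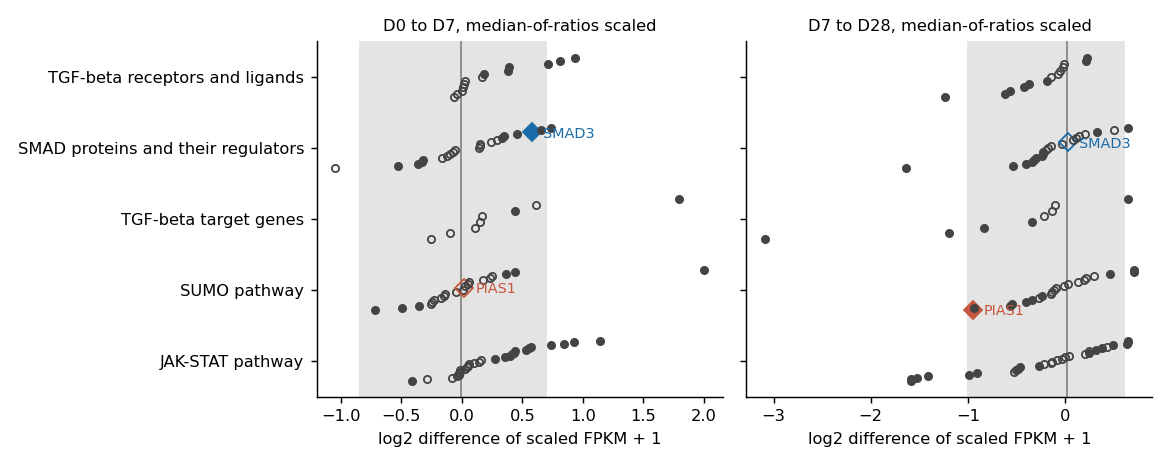
Log2 difference of scaled FPKM + 1 for each listed gene of 5 pathway lists, from D0 to D7 (left) and D7 to D28 (right). Circles are genes and diamonds are SMAD3 (blue) and PIAS1 (red), filled where limma's adjusted p is at most 0.05, and the grey band spans the 5th to 95th percentile of all mRNAs with their median as a line. SMAD3 is at 0.58 and 0.03, and PIAS1 is at 0.02 and -0.95.

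Cell type markers moved between the same ages, and their part in the differences of SMAD3 and PIAS1 was not tested. No listed marker was at 0 in both libraries of an age. The summed scaled FPKM of 5 of 5 monocyte markers was 179 to 196 at D0, 94.7 to 94.8 at D7, 31.5 to 34.0 at D28, 55.7 to 57.9 at D180 and 49.1 to 51.6 at Y2. LYZ made up most of this sum at D0 and fell from 169.7 to 63.1 scaled FPKM at D7, while 3 of the other 4 markers rose at that step, CD14 from 9.54 to 18.1. The 3 neutrophil markers listed of 7 summed to 191 to 202 at D0, 92.2 to 94.3 at D7, 11.11 to 12.1 at D28, 38.6 to 41.7 at D180 and 41.7 to 43.0 at Y2. From D0 to D7, 2 of these 3 fell and CSF3R, the receptor of the granulocyte growth factor G-CSF, rose from 27.1 to 53.7. All 5 monocyte and all 3 neutrophil markers fell from D7 to D28, when 22.8% of all mRNAs were called lower. Both sums were thus lowest at D28, the age at which scaled PIAS1 was lowest. The scaled sums of platelet and red cell markers also fell from D7 to D28, and went on falling to D180.

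The 7 T cell markers listed of 10 summed to 66.0 to 81.1 at D0, 73.3 to 75.1 at D7 and 124 to 134 at D28, and to 78.6 to 87.3 in the late libraries. From D0 to D7, the step at which scaled SMAD3 rose, 3 of the 7 were called higher (17.8% of all mRNAs) and none lower. The median difference of the 7 was 0.17, against -0.01 over all mRNAs. Their summed ranges overlapped, but CD3D varied widely between the D0 pigs (SD 9.89 scaled FPKM, against 0.433 at D7). CD3D differed by -0.67 and was not called, while every other listed T cell marker had a higher scaled mean at D7. The sum without CD3D was not computed. The 6 of 6 B cell markers summed to 18.7 to 19.1 at D0, 25.2 to 25.6 at D7, 37.8 to 38.4 at D28 and 61.8 to 69.5 in the late libraries. The 3 platelet markers listed of 6 summed to 279 at D0, 221 to 224 at D7, 100 to 101 at D28, 65.3 to 74.2 at D180 and 36.2 to 38.7 at Y2. All 3 were called lower from D7 to D28, as were 22.8% of all mRNAs. The 6 red cell markers listed of 8 summed to 480364 to 482385 deposited FPKM at D0, 415000 to 431481 at D7 and 327675 to 352313 at D28. Their deposited sums were 113586 to 136194 at D180 and 237370 to 283190 at Y2. After scaling they summed to 1.06e+06 to 1.10e+06 at D0, 800449 to 827648 at D7 and 337334 to 351780 at D28. The scaled sums were 37464 to 47441 at D180 and 148441 to 178221 at Y2. From D7 to D28, 4 of the 6 were called lower and 1 higher after scaling (beside 22.8% and 18.4% of all mRNAs). As deposited, 1 was called lower and 3 higher at that step (beside 5.9% and 65.3% of all mRNAs).

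SMAD3 and PIAS1 lie on the same chromosome. In RefSeq on Sscrofa11.1, the build of the study, SMAD3 spans chr1:164998457-165124455 and PIAS1 chr1:165957114-166087242, with 832658 bases between them. Of 13 other protein-coding RefSeq genes within 500 kb of either gene or between them, 6 were in the mRNA table under that symbol. From D0 to D7 after scaling, CLN6 rose by 0.59, ZWILCH fell by 0.69 and ITGA11 fell by 1.03 (beside 17.8% and 20.1% of all mRNAs called higher and lower). MAP2K5 rose by 0.50 and AAGAB fell by 0.42 from D7 to D28 (beside 18.4% and 22.8% of all mRNAs). AAGAB rose by 0.31 from D28 to D180 (beside 14.4% of all mRNAs called higher), and FEM1B was called at no step. AAGAB overlaps the end of SMAD3 by 1450 bases. The libraries kept strand, but the strand setting of the counting is not given in the sources used here, so reads of the overlap may have gone to either gene.

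**Figure D4:**
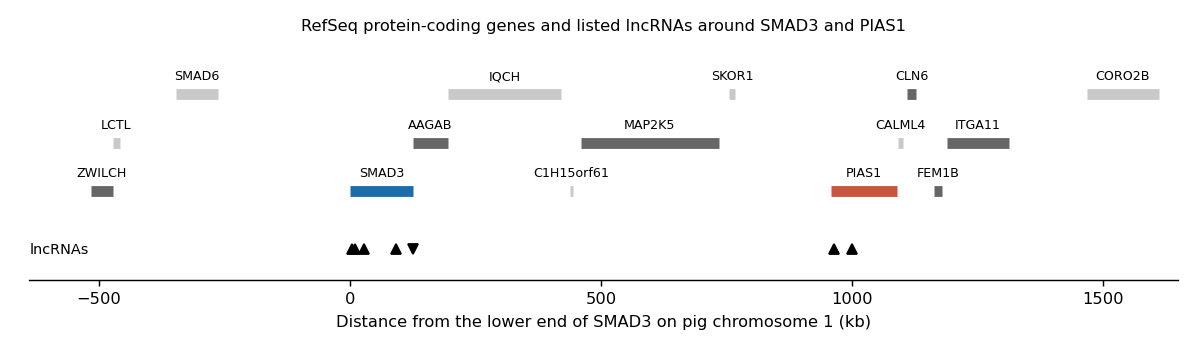
Protein-coding RefSeq genes (bars) and listed lncRNAs (triangles at their midpoints) around SMAD3 (blue) and PIAS1 (red), by distance in kb from the lower end of SMAD3. Dark bars are genes in the mRNA table and light bars are genes not found there under that symbol, rows separate names only, and triangles point up for the plus strand and down for the minus strand. SMAD3 has 5 lncRNAs and PIAS1 2, with 832658 bases between the genes.

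Long non-coding RNAs (lncRNAs) assembled from the same reads overlapped both genes. Of 5946 lncRNAs, 5 lay within 100 kb of SMAD3 and 2 of PIAS1, and all 7 overlapped the gene. TCONS_00015219 (chr1:165116456-165129585, minus strand) shares 8000 of its 13130 bases with SMAD3 and 6580 with AAGAB. TCONS_00005645 (chr1:165996977-165998550, plus strand) lies wholly inside PIAS1. The study paired these transcripts with SMAD3 and PIAS1 by their correlation in these libraries, so their common course is not independent evidence of a link. Whether each lies in an exon or an intron was not analysed here.

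TCONS_00015219 had 0.127 and 0.0886 FPKM at D0, 0.112 and 0.141 at D7, 0.206 and 0.249 at D28, 1.20 and 1.17 at D180, and 0.429 and 0.731 at Y2. Its D180 libraries were the highest, the Y2 libraries were next, and D0 and D7 overlapped. In limma over the 5946 lncRNAs it rose by 0.83 from D28 to D180 (adjusted p = 0.000209) and fell by 0.47 from D180 to Y2 (adjusted p = 0.00537), where 55.8% and 43.3% of lncRNAs were called in those directions. From D0 to D7, the step at which SMAD3 rose on both scales, it differed by 0.02 and was not called, when 0.875% of lncRNAs were called higher. After scaling by the factors of the mRNA table it was called at no step.

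TCONS_00005645 had 0.264 and 0.341 FPKM at D0, 0.397 and 0.616 at D7, 0.530 and 0.405 at D28, 2.61 and 2.27 at D180, and 0.925 and 1.21 at Y2. The D180 libraries were again the highest and those of Y2 next, and the D7 and D28 libraries overlapped. It rose by 1.23 from D28 to D180 (limma adjusted p = 7.81e-05) and fell by 0.73 to Y2 (adjusted p = 0.00176). After scaling it was called at no step. From D7 to D28, the step at which scaled PIAS1 fell, it differed in the same direction by -0.41 (SE 0.12, limma adjusted p = 0.0994). At that step 263 of 5946 lncRNAs were called lower after scaling.

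The other lncRNAs lie inside SMAD3 or PIAS1 on the plus strand. TCONS_00005606 rose by 0.94 and TCONS_00005608 by 0.32 from D0 to D7 after scaling, the step at which SMAD3 rose and 6.05% of lncRNAs were called higher. TCONS_00005608 had 4.77% and 5.14% of the FPKM of SMAD3 at D0 and 13.8% and 13.7% at D180, and its D0 libraries were below those of every other age. TCONS_00005605 and TCONS_00005644 were called at no step after scaling, and TCONS_00005604 was listed at 0 in 8 of 10 libraries. As deposited, all but TCONS_00005604 were called higher from D28 to D180, as were 55.8% of all lncRNAs. After scaling none of them was called at that step.

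Relative to the gene that holds them, both PIAS1 lncRNAs were highest at D180. TCONS_00005644 was at 7.80% and 8.80% of PIAS1 FPKM there and at 2.55% to 6.55% in the other libraries, and TCONS_00005645 was at 6.70% and 7.98% against 2.91% to 5.59%. TCONS_00015219 was between 5.28% and 14.5% of SMAD3 FPKM, with D0, D180 and Y2 libraries overlapping. These shares were not tested, and mRNAs and lncRNAs were quantified with different programs.

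**Figure D5:**
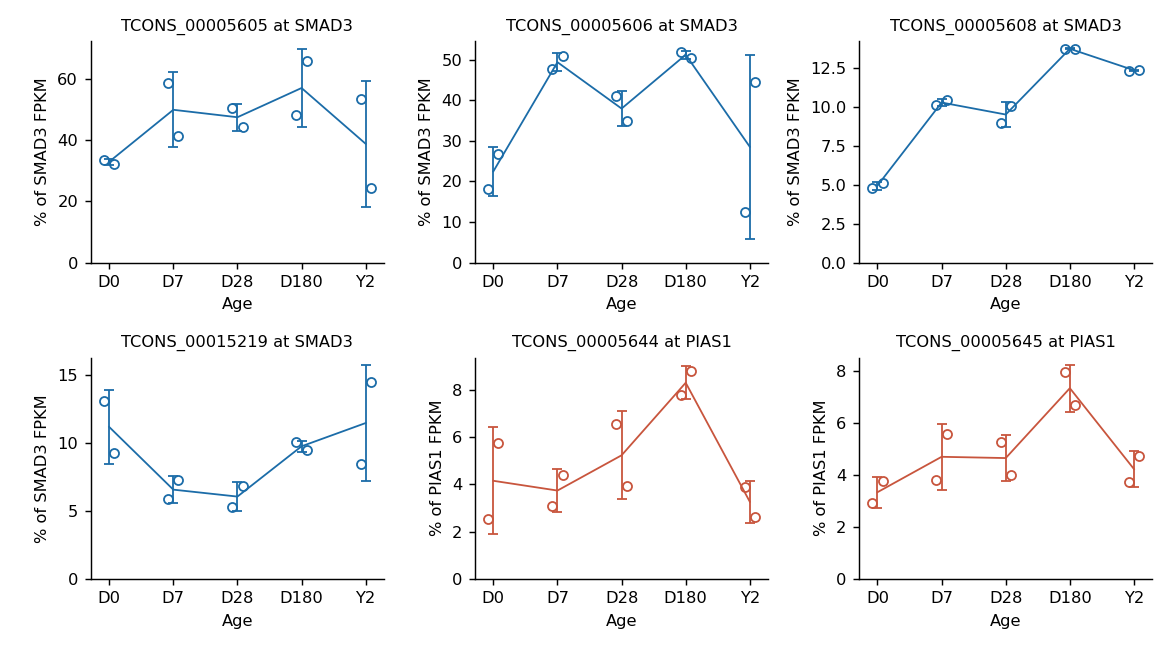
FPKM of 6 lncRNAs as a percent of the FPKM of the gene they overlap, SMAD3 (blue) or PIAS1 (red), by age. Circles are single pigs, lines join the age means and bars are the SD of 2 pigs. TCONS_00005608 is lowest at D0 (4.77% and 5.14%), and both PIAS1 lncRNAs are highest at D180 (6.70% to 8.80%).

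The mRNAs with a course most like each gene were found by Pearson's r of log2(FPKM + 1) over the 10 libraries among 9196 mRNAs with a mean of at least 1 FPKM. As deposited, r was above 0.95 with SMAD3 for 53.7% of these mRNAs and with PIAS1 for 16.8%, and the values of a library share its total. After scaling the shares were 0.283% and 0.337%. Nearest to scaled SMAD3 were ENSSSCG00000017146, for which no symbol was found (r = 0.992), ADAR, an RNA-editing enzyme that interferons induce (r = 0.986), and TRIM14 (r = 0.978). Nearest to scaled PIAS1 were PIK3CB, a catalytic subunit of PI3 kinase (r = 0.990), ADGRG3, an adhesion G protein-coupled receptor (r = 0.983), and NIPBL, which loads cohesin (r = 0.983). ADAR went from 3.91 to 10.3, 9.91, 10.2 and 7.50 scaled FPKM over the ages, and PIK3CB from 8.07 to 7.84, 2.31, 3.08 and 4.66. As deposited the nearest were RAI1, PARP14 and 1 mRNA without a symbol for SMAD3 and BTK, MARCHF1 and AHCTF1 for PIAS1, with r of 0.998 to 0.999.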

How the data were processed

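Base calls were made with CASAVA 1.8.2 and reads were aligned with HISAT2 2.0.4 to Sscrofa11.1 (submitters' processing notes and the study's methods). The authors quantified mRNAs with StringTie 1.3.3 and lncRNAs with Cufflinks 2.2.1 and deposited both as FPKM, without scaling between libraries. The study lists the reads of each library, but the low values show no steps of whole reads. The number of reads behind a single value is therefore not known here, and 2 pigs per age limit the precision. The table starts at 0.5 FPKM in at least 1 library for mRNAs and 0.1 for lncRNAs, and both genes were above 0.5 FPKM in every library.

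Ages were taken from the sample labels. Symbols came from a table of Ensembl identifiers, which paired 9735 of 12354 rows, and gene positions from RefSeq. Median-of-ratios factors used the 11527 mRNAs above 0 in every library. Tests used limma 3.58.1 (R 4.3.3) on values of log2(FPKM + 1), with a mean-variance trend and a single fit of the 5 ages, after testing on simulated data. Exact permutation tests of ratios were run in Python 3.11.15 with numpy 2.4.6, and their p-values were adjusted by Benjamini-Hochberg in scipy 1.17.1. Alternatives were a pseudocount of 0.1, a filter of 1 FPKM in at least 2 libraries, removal of the 10 highest mRNAs, fits of the ages compared or of 2 groups, no trend, the replicate number as a block and each library left out.

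Named genes are SMAD3 and PIAS1, lncRNAs within 100 kb, protein-coding genes between them or within 500 kb, members of the pathway and marker lists, and the 3 mRNAs nearest to each gene in course. These 2 genes, the lists and the tests were chosen with earlier results of these data known. Sequences of promoters and proteins were not analysed here.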

Additional observations from a re-analysis of the deposited data

How the results depend on the processing

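Of 558 recomputed values for 38 results, 526 kept their direction and their side of the threshold, 19 lost the call, 5 gained one and 8 changed sign. The cause of these changes was not tested. Removing the 10 highest mRNAs and rescaling the rest to one total made 5 differences significant that were not: SMAD3 by 0.41 from D7 to D28 and 0.66 from D28 to D180, and PIAS1 by 0.49 from D0 to D7 and 0.76 from D28 to D180 against the scaled values, and PIAS1 by -0.50 from D7 to D28 against the deposited ones. It turned PIAS1 to 0.27 from D180 to Y2 (deposited -0.38) and to 0.73 for late against suckling ages (scaled -0.27). With 2 groups in the fit, the scaled late differences of 0.15 for SMAD3 and -0.27 for PIAS1 were not called, and with only the ages compared the deposited PIAS1 rise of 0.22 from D0 to D7 was lost (limma adjusted p = 0.0699). Scaling the lncRNAs ended all calls of TCONS_00005645 (0.31 from D28 to D180, -0.13 to Y2, 0.047 for late ages, F = 3.45 over ages) and of TCONS_00015219 (0.19, -0.043, 0.16 and F = 2.01), and turned the latter to -0.015 from D7 to D28.

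Leaving out 1 library at a time, scaled SMAD3 from D180 to Y2 ranged from -0.31 to -0.28 and lost its call without either library of either age, and its late difference reached down to 0.142 and lost the call without D180 pig 1 (0.147). Deposited PIAS1 from D0 to D7 lost its call without D0 pig 1, D0 pig 2 or D7 pig 2, with a range of 0.18 to 0.26. Signs changed only in differences that were not called: scaled SMAD3 from D7 to D28 (-0.0017 to 0.064), scaled PIAS1 from D0 to D7 (-0.0078 to 0.047), TCONS_00005645 from D7 to D28 (-0.14 to 0.070) and TCONS_00015219 from D0 to D7 (-0.00056 to 0.050).

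Same-numbered pigs are different animals, and their deviations correlated between -0.0819 and 0.0775 over 10 pairs of ages, so the numbers pair no libraries. With the replicate number as a block, the call of neither gene changed, for example 0.58 (limma adjusted p = 0.000692) for deposited SMAD3 from D0 to D7, and the lncRNAs called at that step went from 111 to 72.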
